A study of Mus musculus with 32 samples.

Results

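The RNA described here was precipitated from brain homogenate of Cx3cr1-CreER:RPL22-HA mice with an anti-HA antibody (HA precipitates) or, from the same brains, with a mouse IgG1 control antibody (IgG precipitates). Libraries were chosen by name and paired by mouse, which gave 4 HA and 4 IgG libraries, 8 of the 32 libraries of the series. Both groups share strain (C57BL/6), both transgenes and the tamoxifen course, which was 5 mg by gavage on 4 occasions with a day between them, begun in mice 4 to 6 weeks old. Each brain was divided into 4 samples, the other two being sorted cells with and without HA precipitation. The same samples exist for a Sall1-CreER line with the RPL22-HA allele, given the same tamoxifen course at the same ages. They are used below only to show where the Cx3cr1 precipitates differ. Cre is driven from Cx3cr1, which other macrophages share with microglia, so the tag is not limited to microglia by design, and the homogenate holds all cells of the tissue.

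Cx3cr1 encodes the fractalkine receptor, which microglia, the resident macrophages of the brain parenchyma, carry at high level. Macrophages at the borders of the brain (perivascular space, meninges and choroid plexus) also express it, and a cell in which the inducible Cre was active at the time of tamoxifen keeps the tagged ribosomal protein RPL22 afterwards. Precipitation of the tag recovers RNA bound to the ribosomes of such cells, whereas the isotype antibody recovers RNA that binds antibody or beads without the tag. A fold change of HA over IgG therefore compares the make-up of the precipitates and not the amount of RNA in them.

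Macrophage genes often carry sites for PU.1, the ETS-family transcription factor encoded by Spi1, close to their start. The bases upstream of 3 genes, taken from the marker genes and those with the largest increases, are shown because they hold AGGAAGT or its reverse complement ACTTCCT, a PU.1-type motif, here in capitals. Sequences are RefSeq's, build GRCm38.p6, 250 bases before the annotated start on the strand of the gene. They are C1qb at chr4:136886201-136886450 (minus strand), which encodes a chain of complement C1q; Pf4 at chr5:90772185-90772434 (plus strand), which encodes a chemokine of border macrophages and platelets; and Hcls1 at chr16:36934733-36934982 (plus strand), which encodes a haematopoietic actin-binding adaptor.
C1qb: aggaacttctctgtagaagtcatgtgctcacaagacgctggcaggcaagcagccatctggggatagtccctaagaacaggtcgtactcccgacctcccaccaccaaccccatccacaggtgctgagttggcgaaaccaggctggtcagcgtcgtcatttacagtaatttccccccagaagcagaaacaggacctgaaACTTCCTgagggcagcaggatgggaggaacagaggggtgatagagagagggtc
Pf4: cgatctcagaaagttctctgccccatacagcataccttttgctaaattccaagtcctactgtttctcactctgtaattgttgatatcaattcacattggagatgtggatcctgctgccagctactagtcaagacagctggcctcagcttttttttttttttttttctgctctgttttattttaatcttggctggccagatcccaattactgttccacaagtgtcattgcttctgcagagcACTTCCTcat
Hcls1: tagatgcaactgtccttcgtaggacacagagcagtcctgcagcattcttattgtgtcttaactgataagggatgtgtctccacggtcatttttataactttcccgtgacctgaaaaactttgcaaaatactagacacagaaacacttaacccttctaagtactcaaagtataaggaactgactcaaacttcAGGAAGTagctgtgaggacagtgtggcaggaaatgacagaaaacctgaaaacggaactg
The motif began 53 bases before the start of C1qb, 10 bases before that of Pf4 and 59 bases before that of Hcls1. It also lay in the window of C1qc, and these letters were not found in those of Laptm5 and Cx3cr1. However, 151 bases of the C1qc window, 191 of the Laptm5 window and all 250 of the Cx3cr1 window lie within GENCODE transcripts, so these are not plainly upstream sequence. Only the windows of the genes named here were looked at singly. Those of Cd74 and of the other genes with the largest increases were not, and C1qa had no RefSeq window. The named genes therefore give no share of markers or of increased genes with the motif. Of 10021 genes tested, 7775 had a RefSeq window, and the 250 upstream bases held the motif on either strand in 8.06% of them. The share was 11.6% of 2330 genes called higher in HA (defined below) and 6.27% of 2824 genes called lower, given as a description with no test. Counted by window, for genes with several starts, 9.79% of 2972 windows of higher genes and 4.87% of 3862 windows of lower genes held it, against 6.57% of all 10165.

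HA libraries were shallower than IgG libraries, with 286418 to 574671 gene counts and 11026 to 12663 genes with a count in HA against 2200897 to 2470411 gene counts and 15188 to 15594 genes in IgG. Levels below are gene counts scaled to counts-per-million (CPM) within a library, and a count of 0 allows up to 5.22 to 10.5 CPM in an HA library and 1.21 to 1.36 CPM in an IgG library, for counting error only. The IgG library of mouse 2 stood apart. Its log2 CPM correlated with those of the other 3 IgG libraries at r of 0.872 to 0.906, against 0.967 to 0.973 among those 3 and 0.887 to 0.938 among HA libraries (correlations across genes). The counts that lead the results are therefore also given without mouse 2.

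Of 10021 genes tested, 6720 (67.1%) differed between HA and IgG at an adjusted p under 0.05 (edgeR quasi-likelihood test with mouse as a block, Benjamini-Hochberg adjustment over all genes tested), and such genes are named called. In HA, 2940 (29.3%) were higher and 3780 (37.7%) lower, and without mouse 2 these counts were 3122 and 3993. The median log2 fold change of all genes was -0.28. With library totals in place of trimmed-mean (TMM) scaling it was -0.70, a shift of -0.42, and the split was then 2176 higher and 4926 lower. The low-count filter asks for a minimum level in 4 libraries, so a gene low in one group could pass only through the group where it is high, and the counts of list members that passed are descriptions. In 6074 genes (60.6%) the HA and IgG libraries did not overlap in CPM, with HA higher in 1909 (19.0%) and lower in 4165 (41.6%).

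**Figure D1:**
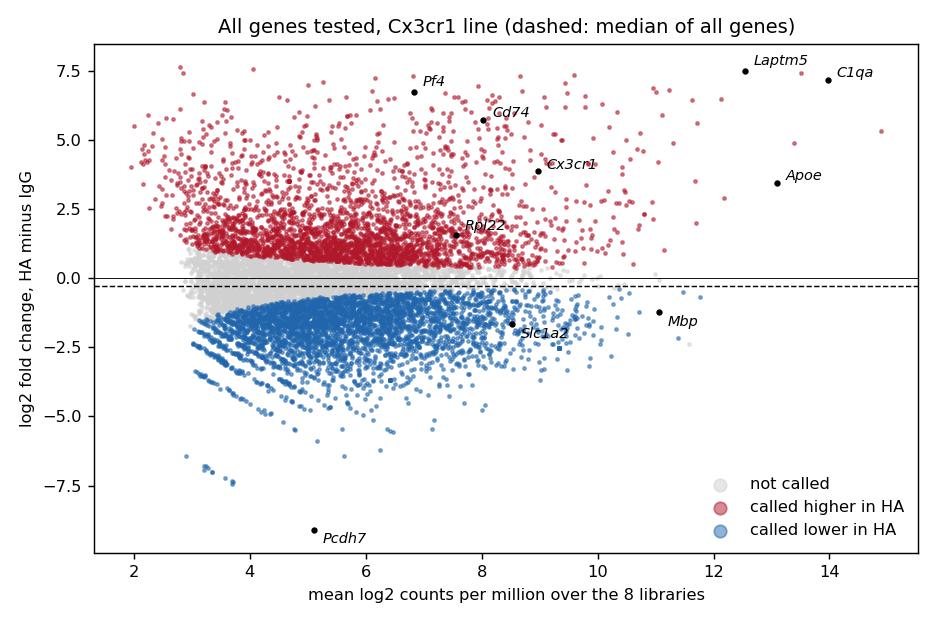
Log2 fold change of HA over IgG against mean log2 CPM for every gene tested, in red where called higher in HA, in blue where called lower and in grey where not called; the dashed line is the median of all genes, -0.28. Laptm5 and C1qa combine a high level with log2 fold changes of 7.52 and 7.19, and Mbp, at a high level too, lies below 0.

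All 4 genes given to mark the cells (C1qa, Laptm5, Pf4 and Cd74) were present in each HA library and higher there than in every IgG library. C1qa, which encodes another chain of C1q (mm9, chr4:136451831-136454759, minus strand), had 26295, 31229.9, 24986 and 26866 CPM in HA precipitates of mice 1 to 4, against 201, 279, 279 and 237 CPM in their IgG precipitates. Laptm5, a lysosomal membrane protein (chr4:130469249-130492063, plus strand), had 7625, 7553, 13059 and 13016 CPM in HA and 72.2, 80.1, 72.7 and 61.2 CPM in IgG. The HA and IgG libraries of both genes lay far apart, and the HA libraries of mice 3 and 4 held more Laptm5 than those of mice 1 and 2. The log2 fold changes were 7.19 ± 0.19 (SE) for C1qa and 7.52 ± 0.22 for Laptm5, with adjusted p of 1.87e-20 and 2.81e-19 (edgeR).

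Pf4 (chr5:91201461-91202409, plus strand) had 254, 312, 259 and 175 CPM in HA against 0.909, 5.26, 3.14 and 2.60 CPM in IgG, and its log2 fold change was 6.76 ± 0.29. Cd74, the invariant chain of MHC class II (chr18:60963503-60972306, plus strand), had 442, 419, 769 and 353 CPM in HA against 7.27, 9.31, 20.2 and 12.6 CPM in IgG, with a log2 fold change of 5.73 ± 0.23. The adjusted p was 1.19e-16 for Pf4 and 3.52e-17 for Cd74 (edgeR). Mouse 3 had the most Cd74 in both precipitates, and mouse 2 the most Pf4.

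Cx3cr1 itself, the gene that drives Cre (chr9:119957801-119977414, minus strand), had 819.6, 679, 814 and 1142 CPM in HA and 74.5, 98.4, 65.5 and 71.2 CPM in IgG, a log2 fold change of 3.87 ± 0.20 (adjusted p 6.56e-15, edgeR). Rpl22, whose protein carries the tag, had 251, 275, 264 and 251 CPM in HA and 121, 118, 112 and 114 CPM in IgG, a log2 fold change of 1.56 ± 0.18 (adjusted p 3.55e-08, edgeR). Both genes kept HA and IgG libraries apart in every mouse, with smaller fold changes than the 4 markers. Counts over Rpl22 do not tell the tagged allele from the untagged one.

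**Figure D2:**
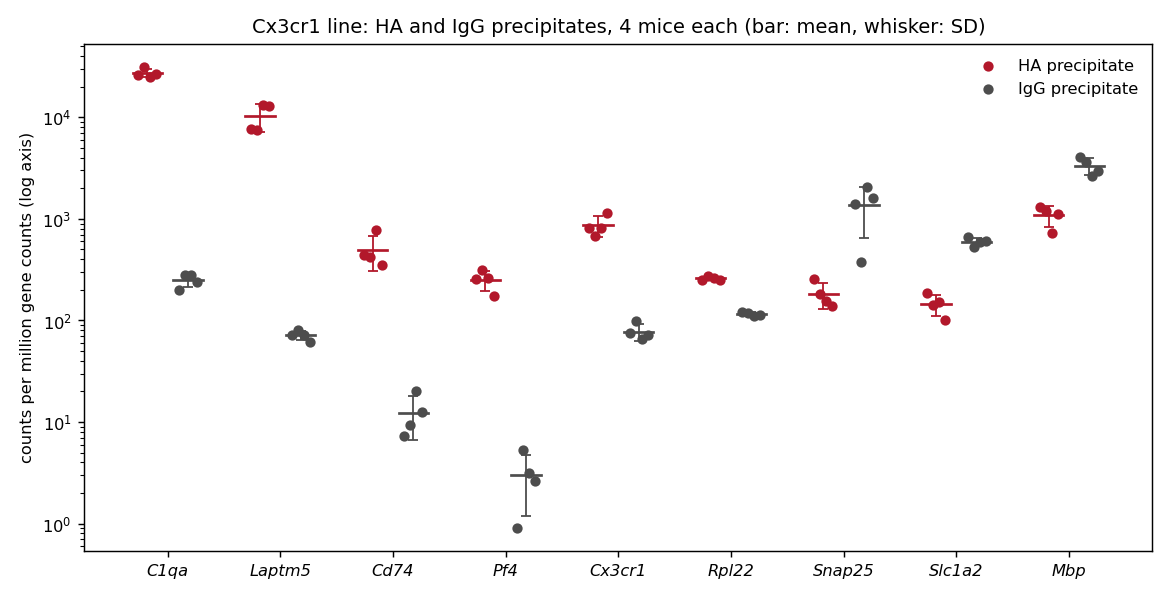
CPM (log axis) of 9 genes in the 4 HA libraries (red, left of each pair) and the 4 IgG libraries (grey) of the Cx3cr1 line; each point is a library, the bar is the mean and the whisker the SD. C1qa sits at 24986 to 31229.9 CPM in HA against 201 to 279 CPM in IgG, while Snap25, Slc1a2 and Mbp lie lower in HA than in IgG.

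Genes of the microglial surface rose almost as a whole. Of 22 listed genes, 21 passed the low-count filter, 20 were called higher and 0 lower, with a median log2 fold change of 5.35, against -0.28 for all genes; without mouse 2, 21 of 21 were higher with a median of 5.34. Together they took 3.27% to 3.63% of gene counts in HA libraries and 0.0815% to 0.103% in IgG libraries. In bulk precipitates, fewer cells of a type and less RNA per cell cannot be told apart.

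Tmem119, a membrane protein used as a microglial marker, had 3762, 2738, 4155 and 5963 CPM in HA and 41.8, 47.0, 52.5 and 46.9 CPM in IgG, and its log2 fold change was 6.81 ± 0.21 (adjusted p 5.04e-19, edgeR). Trem2, a lipid-sensing receptor, averaged 3444 ± 264 CPM in HA and 38.6 ± 9.75 CPM in IgG (SD, n = 4 each, as for all means below). Its signalling adaptor Tyrobp averaged 3571 ± 1133 CPM in HA and 43.4 ± 9.44 CPM in IgG. Csf1r, the receptor for the survival factors CSF1 and IL-34, averaged 5701 ± 836 CPM in HA and 154 ± 28.5 CPM in IgG. The log2 fold changes of Trem2, Tyrobp and Csf1r were 6.90, 6.74 and 5.61, and none of the 3 overlapped between groups. Aif1, which encodes the calcium-binding protein IBA1 used to stain microglia, had 1469.9 to 1682 CPM in HA and 17.8 to 23.3 CPM in IgG, a log2 fold change of 6.59 ± 0.21.

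A few surface genes departed from that pattern. P2ry12, the ADP receptor that guides microglial processes, had 179, 91.8, 94.1 and 69.8 CPM in HA and 70.0, 74.5, 88.8 and 66.4 CPM in IgG. Mouse 1 stood highest in HA, the groups overlapped, and the log2 fold change was 0.92 ± 0.24 (adjusted p 0.00148, edgeR); without mouse 1 it was 0.53 (adjusted p 0.0851). Sorted cells of the same mice, with both sorted libraries of a mouse summed, had 3512, 3536, 3468 and 3839 CPM of P2ry12, far above the HA precipitates, while for Tmem119 the HA level of 2738 to 5963 CPM overlapped that of sorted cells (2914 to 3452 CPM). P2ry12 overlaps Med12l on the opposite strand, and the strand setting of the counting was not given in the sources used here. Gpr34, a lysophospholipid receptor, was not called, at 26.1, 15.3, 32.1 and 14.0 CPM in HA and 15.4, 23.1, 18.8 and 15.6 CPM in IgG, with 698 to 1082 CPM in sorted cells. Sorted cells were prepared by collagenase digestion and a Percoll gradient, so they are set beside HA as a description with no test, here and below.

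Transcription factors of macrophages followed, with 12 of 15 tested genes called higher and 1 lower (16 listed, median log2 fold change 4.21; without mouse 2, 12 higher and 1 lower, median 4.36). Spi1 averaged 363 ± 34.5 CPM in HA and 11.9 ± 3.50 CPM in IgG, and its log2 fold change was 5.33 ± 0.23. Irf8, which acts with PU.1, averaged 578 ± 117 CPM in HA and 17.5 ± 6.53 CPM in IgG. Sall1, which helps keep microglial identity, had 176, 122, 115 and 108 CPM in HA against 18.2, 15.0, 14.4 and 13 CPM in IgG, a log2 fold change of 3.49 ± 0.24. Mef2c, which neurons also use, went the other way, with 88.7, 85.7, 71.1 and 73.3 CPM in HA and 209.9, 162, 351 and 362 CPM in IgG. Its log2 fold change was -1.28 ± 0.24 (adjusted p 4.14e-05, edgeR), and with the trend on transcript length removed it was -0.49 and not called (adjusted p 0.0765). In that setting 14 of 15 genes of the list were higher and 0 lower.

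The C1q genes were among the most abundant of all in the HA precipitates. C1q, made of the products of C1qa, C1qb and C1qc, starts the classical complement pathway and tags synapses for removal. C1qb had 23098, 21441, 19345 and 15757 CPM in HA and 141, 170.0, 184 and 116 CPM in IgG, and C1qc had 9198, 9309, 6321 and 5694 CPM in HA and 110.4, 119.8, 122 and 85.5 CPM in IgG. The log2 fold changes were 7.43 ± 0.19 and 6.50 ± 0.20, and mice 1 and 2 were above mice 3 and 4 for both genes in HA. Of 13 complement genes listed, 9 were tested and 8 were called higher, with a median log2 fold change of 5.13, and the list held 4.96% to 6.32% of gene counts in HA and 0.0547% to 0.0814% in IgG. Without mouse 2, 9 of 10 tested genes were higher and the median was 4.14. Itgam, the alpha chain of complement receptor CR3, had 760.4, 740.3, 796 and 782 CPM in HA and 31.8, 28.3, 28.7 and 26.9 CPM in IgG, a narrow spread in both. C3ar1, the receptor for the C3a fragment, had 24.4, 3.06, 13.8 and 14.0 CPM in HA and 4.09, 3.64, 5.83 and 2.60 CPM in IgG and did not pass the filter, with 274 to 333 CPM in sorted cells.

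All 15 tested genes of Fc receptors and their signalling chain (17 listed) were called higher, with a median log2 fold change of 5.03. Fcer1g, the shared signalling chain of Fc receptors, averaged 808 ± 330.0 CPM in HA and 20.5 ± 6.13 CPM in IgG, and Fcgr3, a low-affinity IgG receptor, 1165 ± 221 CPM in HA and 47.7 ± 9.51 CPM in IgG. The smallest change in this list was that of Fcgr1, the high-affinity IgG receptor, at 1.59 ± 0.21, with 534 to 629 CPM in HA and 138 to 488 CPM in IgG. All 22 cytokine, chemokine and purine receptors were called higher, with log2 fold changes between 1.84 (Csf2ra, the receptor chain for GM-CSF) and 6.56 (Cmklr1, the chemerin receptor) and a median of 4.10. Cmklr1 had 371, 315, 401 and 412 CPM in HA and 7.72, 7.29, 4.04 and 1.74 CPM in IgG.

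Of 18 Toll-like receptors and their partners, 9 passed the filter and 8 were called higher (median 4.14). Of the receptors themselves only Tlr13 was called, and the others called, Cd14, Ly86, Myd88, Ticam1, Ticam2, Irak4 and Unc93b1, are partners, adaptors, a kinase and a chaperone. Ticam2, an adaptor of the lipopolysaccharide receptor, had 55.7, 55.1, 80.3 and 52.4 CPM in HA and 0, 0.810, 0.449 and 0 CPM in IgG. Its 100 counts in HA against 3 in IgG gave a ratio of 189 (95% exact interval 62.8 to 932, counting error only). Tlr13, a sensor of bacterial ribosomal RNA, had 141, 113, 243 and 223 CPM in HA and 2.27, 3.64, 2.24 and 2.17 CPM in IgG, a log2 fold change of 6.42 ± 0.30. Tlr7, a sensor of single-stranded RNA, was not called, with 15.7, 6.12, 11.5 and 3.49 CPM in HA and 6.36, 7.29, 8.07 and 6.95 CPM in IgG (log2 fold change 0.87 ± 0.48), and 286 to 387 CPM in sorted cells. Tlr2, which binds bacterial lipoproteins, had 33.1, 55.1, 66.5 and 6.98 CPM in HA and 2.73, 4.86, 6.28 and 3.04 CPM in IgG but did not pass the filter, nor did Tlr1, Tlr3, Tlr4, Tlr6, Tlr8 and Tlr9. Of these, Tlr3, a sensor of double-stranded RNA, averaged 1.31 CPM in HA and 6.29 CPM in IgG.

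The NADPH oxidase, which makes superoxide in phagocytes, had 5 of 6 subunit genes tested and all 5 higher (median 5.89). The largest fold change was that of Ncf1, the organiser subunit p47phox, at 992, 765, 1714 and 1533 CPM in HA against 12.3, 13, 10.8 and 9.98 CPM in IgG. Cyba, a membrane subunit with more CPM than Ncf1 in every HA library, had 1449.5, 1566, 2119.9 and 2440.5 CPM in HA and 35, 38.1, 23.8 and 26.5 CPM in IgG. Cybb, the catalytic subunit, had 6.98 to 29.8 CPM in HA and 0.405 to 1.82 CPM in IgG and was not tested.

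The lysosome list, which includes the cathepsin inhibitor gene Cst3, held 10.1% to 11.1% of gene counts in HA and 0.402% to 0.485% in IgG. This was the highest share of the lists in HA. Cst3 alone, at 48949 to 52634 CPM in HA, made up much of that share. Of 20 genes, 19 were called higher with a median log2 fold change of 4.63, and without mouse 2, 19 of 20, median 4.74. Cst3, which encodes the cathepsin inhibitor cystatin C, had 51083, 52634, 50301 and 48949 CPM in HA and 1812, 1697, 1752 and 1406 CPM in IgG. Ctsd, an aspartic protease of lysosomes, averaged 17868 ± 2418 CPM in HA and 779 ± 69.9 CPM in IgG. Ctss, a cysteine protease that trims the invariant chain, averaged 4222 ± 1286 CPM in HA and 186 ± 50.7 CPM in IgG. These genes did not overlap between groups. Cd68, a lysosomal glycoprotein of macrophages, had a log2 fold change of 5.79 ± 0.23, and Lamp2, a lysosomal membrane protein, was the member not called, at 6.88 to 19.1 CPM in HA and 3.64 to 25.1 CPM in IgG.

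**Figure D3:**
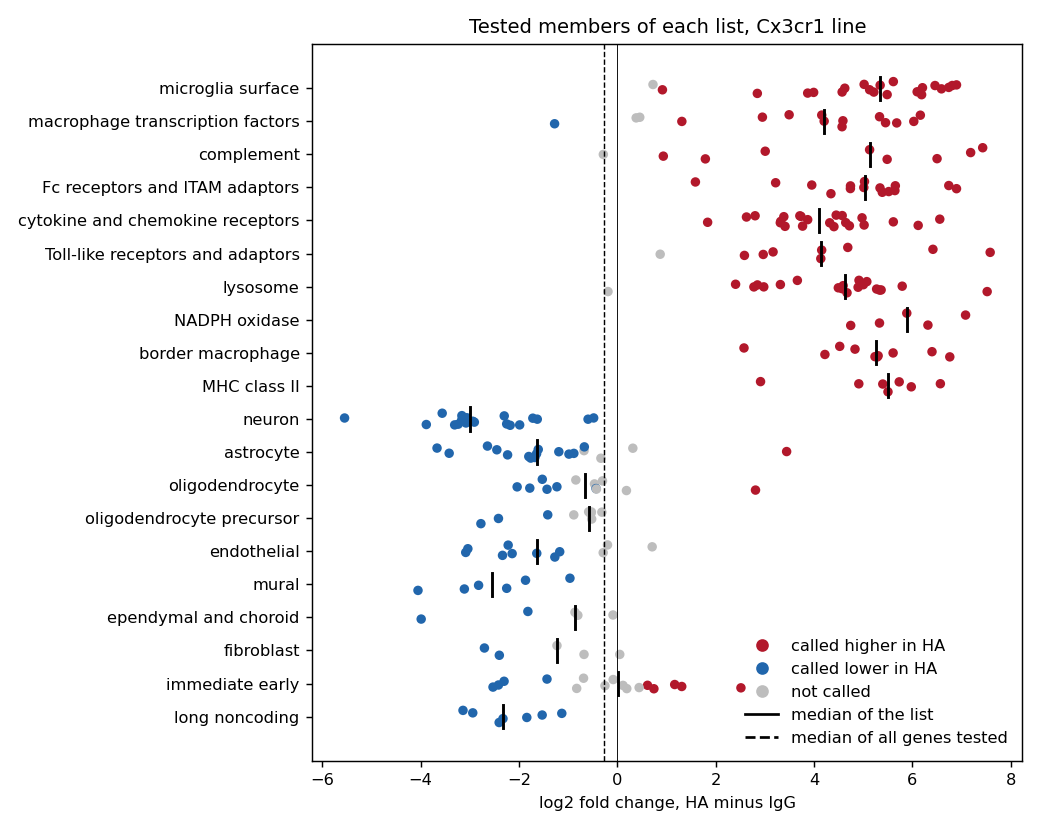
Log2 fold change of HA over IgG for the tested members of 20 gene lists, in red where called higher, in blue where called lower and in grey where not called; black bars are medians of lists and the dashed line is the median of all genes, -0.28. Medians of the microglia and macrophage lists lie between 4.10 and 5.89, and those of neurons, other glia and vessels at -0.58 or below.

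Border macrophage genes were higher in HA than in IgG precipitates. All 10 of the 17 listed genes that passed the filter were called higher (median log2 fold change 5.26; without mouse 2, 10 of 10, median 5.32), and the list held 0.0720% to 0.101% of gene counts in HA, 0.00300% to 0.00458% in IgG and 0.0344% to 0.0439% in sorted cells. Apart from Stab1, the genes tested averaged 0.439 to 4.84 CPM in IgG and passed the filter through the HA libraries, which largely fixed their direction. With IgG libraries thinned to the mean HA total, 4 were tested and all 4 were higher. The 7 genes that did not pass averaged 3.27 to 9.52 CPM in HA and 0.114 to 0.765 CPM in IgG. Cd163, a haemoglobin scavenger receptor, had 19.1, 48.9, 29.8 and 66.3 CPM in HA and 0.454, 0.405, 0.449 and 0.868 CPM in IgG, and the log2 fold change was 6.4 ± 0.48 (adjusted p 1.1e-11, edgeR). It had 0.775, 1.15, 2.09 and 4.09 CPM in the sorted cells of mice 1 to 4, below the HA library in each mouse.

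Pf4 showed the same order, at 175 to 312 CPM in HA against 4.04 to 9.72 CPM in sorted cells, as did Cbr2, a carbonyl reductase, at 59.2 to 73.4 CPM in HA, 1.36 to 2.69 CPM in IgG and 1.02 to 4.53 CPM in sorted cells. Clec10a, a galactose-binding lectin, had 17.4, 39.8, 59.7 and 27.9 CPM in HA and 0, 1.21, 2.24 and 1.30 CPM in IgG, with 0 to 1.02 CPM in sorted cells. Mrc1, the mannose receptor, had 13.9, 33.6, 18.4 and 24.4 CPM in HA, 4.54, 2.02, 6.28 and 6.51 CPM in IgG and 4.62 to 18.9 CPM in sorted cells, where the HA and sorted ranges overlapped. Stab1, a scavenger receptor that microglia also carry, had 223 to 353 CPM in HA, 13.5 to 19.3 CPM in IgG and 308 to 389.6 CPM in sorted cells. The part that loss of cells during sorting has in these values was not tested.

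MHC class II genes were higher in 7 of 7 tested cases, with a median log2 fold change of 5.51 (9 listed). H2-Aa, an alpha chain that presents peptides, had 317, 545, 835 and 388 CPM in HA and 15.9, 23.9, 14.8 and 8.68 CPM in IgG. H2-Ab1, its beta partner, had 143, 149.9, 259 and 192 CPM in HA and 20.4, 31.6, 44.9 and 34.3 CPM in IgG, the smallest change of the list at 2.91 ± 0.21. For both genes, as for Cd74, the HA library of mouse 3 was the highest, and so were the sorted cells of mouse 3, at 424 CPM of H2-Aa and 535 CPM of H2-Ab1.

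Most genes that define blood leukocytes were at or near 0. Of 12 monocyte and dendritic cell genes, 7 had no count in any HA library, among them Ccr2, the chemokine receptor of inflammatory monocytes, which had 3 counts in all IgG libraries. Flt3, a cytokine receptor of dendritic cells and their progenitors, had no count in HA and 76 in IgG and was at least 4.47-fold lower in HA (floor of 3 counts over the group). Of 8 neutrophil genes none passed the filter, and S100a8, a calcium-binding protein of neutrophils, had 0 to 6.98 CPM in HA and 0.405 to 5.64 CPM in IgG. Of 13 lymphocyte genes, 11 had no count in HA, and the only one tested, Cd79b, known as a chain of the B cell receptor, had 40.0, 33.6, 43.6 and 14.0 CPM in HA against 0.454, 1.62, 0 and 0.868 CPM in IgG and 49.6 to 69.4 CPM in sorted cells.

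Of 7 platelet genes 2 were tested and 1 was called higher. Ppbp and Gp1ba had no count in either precipitate, and Gp5 had none in HA and 23 in IgG. Itga2b, the integrin chain CD41, averaged 2.73 CPM in HA and 8.22 CPM in IgG and was not called (log2 fold change -1.31 ± 0.74), but was lower with library totals. Gp9, which encodes a subunit of the platelet von Willebrand receptor, had 204, 189.7, 151 and 157 CPM in HA and 1.36, 0.405, 1.79 and 2.17 CPM in IgG, a log2 fold change of 7.26 ± 0.33, and 111 to 126 CPM in sorted cells. Of 6 erythroid genes tested, 0 were called in either direction (median log2 fold change 0.42), but 2 were called lower with library totals and 4 with the length trend removed (median -0.69). The list held 0.00974% to 0.0206% of gene counts in HA and 0.0102% to 0.0260% in IgG. The haemoglobin genes are near-identical copies of one another, so their single values are uncertain.

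Neuronal genes fell throughout. All 20 listed genes were tested and called lower, with a median log2 fold change of -3.00 (without mouse 2, 20 of 20, median -2.92), and the list held 0.272% to 0.484% of gene counts in HA against 1.41% to 1.76% in IgG. Camk2a, a kinase of excitatory synapses, had 197, 245, 75.7 and 119 CPM in HA and 1501, 2081, 1572 and 2103 CPM in IgG, a log2 fold change of -3.17 ± 0.23 (adjusted p 5.38e-12, edgeR). Snap25, which drives vesicle fusion, had 258, 180.5, 154 and 139.7 CPM in HA against 1399, 374, 2075 and 1602 CPM in IgG. Mouse 2 had much less Snap25 than the other IgG libraries, and the log2 fold change was -2.30 ± 0.47 with mouse 2 and -2.70 without. Neuronal RNA was still measured in HA: Nrgn, which binds calmodulin in dendrites, had 2852, 2291, 1528 and 1557 CPM in HA and 4009, 3953, 3521 and 3246 CPM in IgG, the smallest change of the list at -0.48 ± 0.16.

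Astrocytic genes were lower in 14 of 18 cases and higher in 1, with a median log2 fold change of -1.63. Slc1a2, the main glutamate transporter of astrocytes, had 186, 141, 151 and 101 CPM in HA and 661, 531, 594 and 604 CPM in IgG, a log2 fold change of -1.64 ± 0.19 (adjusted p 3.45e-08, edgeR). With the trend on transcript length removed it was -0.20 and not called (adjusted p 0.364). Gfap, an intermediate filament, had 17.5 to 30.6 CPM in HA and 66.0 to 327 CPM in IgG. The exception was Apoe, a lipid carrier that astrocytes and macrophages both make, with 14902, 13279, 13492 and 13215 CPM in HA and 2006, 1623, 1657 and 1423 CPM in IgG, a log2 fold change of 3.44 ± 0.15 (adjusted p 2.77e-16, edgeR). Apoe had 1698 to 3534 CPM in sorted cells. The astrocyte list, which includes Apoe, took 1.52% to 1.72% of gene counts in HA and 0.797% to 1.00% in IgG.

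Oligodendrocyte genes were lower in 6 of 12 tested, against 37.7% of all genes tested, and higher in 1. The median log2 fold change was -0.66 (without mouse 2, 8 of 14 lower and 1 higher, median -1.21, and with the length trend removed, 9 of 12 lower). Mbp, a main protein of myelin, had 1310.3, 1202, 718 and 1117 CPM in HA and 4067, 3657, 2657 and 2952 CPM in IgG, a log2 fold change of -1.23 ± 0.16. Trf, the iron carrier transferrin, was the exception with 2161 to 2387 CPM in HA and 342 to 586 CPM in IgG (log2 fold change 2.81 ± 0.17), and it had 1360.4 to 1553 CPM in sorted cells. Precursor genes were lower in 3 of 9, near the 37.7% of all genes tested, and in 6 of 9 with the length trend removed. They took 0.0248% to 0.0398% of gene counts in HA and 0.0709% to 0.0889% in IgG.

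Vessel genes were lower in 8 of 11 endothelial and 6 of 6 mural cases, with medians of -1.64 and -2.54 (without mouse 2, 10 of 13 and 5 of 6, medians -1.91 and -2.16). Genes low in HA could pass the filter through the deeper IgG libraries alone, which favours calls of lower, so these counts are descriptions. With IgG libraries thinned to the mean HA total, 3 of 5 endothelial genes tested were lower (median -1.07). Only 1 mural gene was then tested, and it was lower. Cldn5, a tight junction protein of brain endothelium, had 10.4, 3.06, 9.18 and 17.5 CPM in HA and 74.1, 55.5, 59.2 and 49.5 CPM in IgG, and Vtn, made by pericytes, 27.5 to 41.9 CPM in HA and 77.7 to 87.8 CPM in IgG. Fibroblast genes were lower in 2 of 5 and ependymal and choroid plexus genes in 2 of 5, near the 37.7% of all genes tested, and with the length trend removed ependymal and choroid plexus genes were lower in 5 of 5. Ttr, the thyroid hormone carrier of the choroid plexus, had 517, 694, 649 and 555 CPM in HA and 976, 806, 851 and 749.6 CPM in IgG. The libraries of Ttr did not overlap, but its log2 fold change of -0.09 ± 0.17 was not called; with library totals alone it was -0.51 (adjusted p 0.00876, edgeR), and with the length trend removed -0.83 (adjusted p 0.000144). With library totals, 10 oligodendrocyte, 8 precursor and 4 fibroblast genes were called lower.

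**Figure D4:**
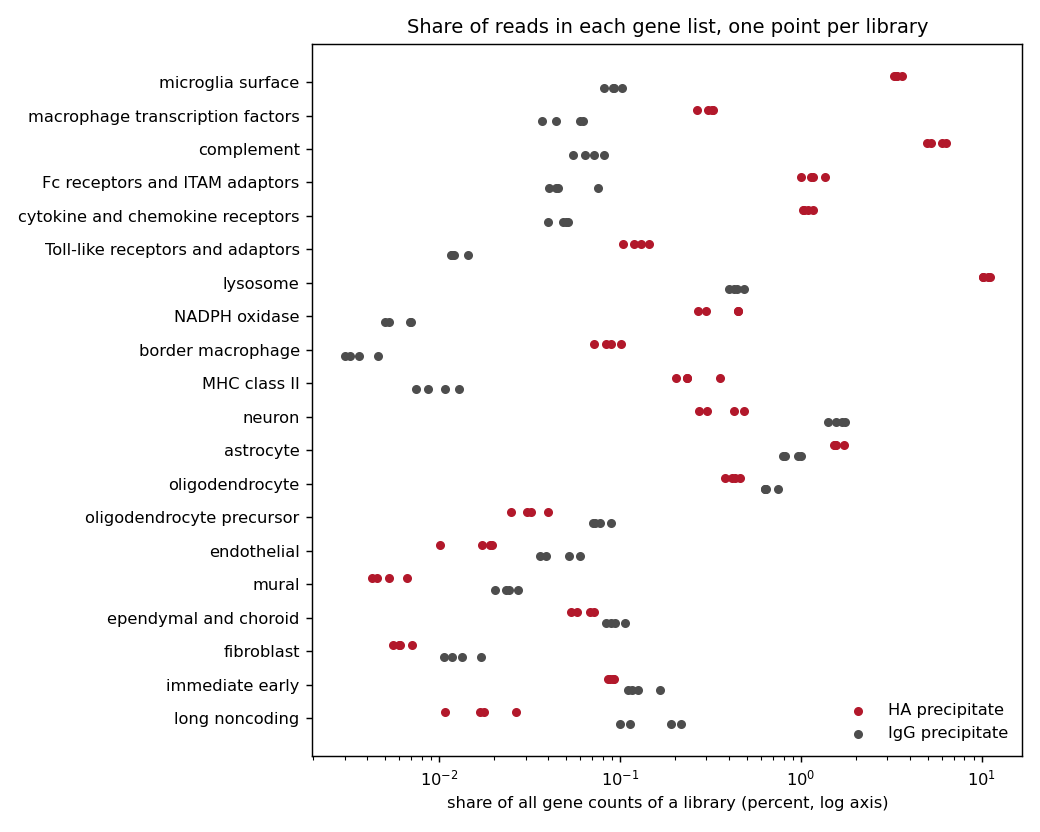
Share of all gene counts (percent, log axis) that each of 20 gene lists took in the 4 HA libraries (red, above) and the 4 IgG libraries (grey, below) of the Cx3cr1 line, with 1 point per library. The lysosome list, which includes Cst3, reaches 10.1% to 11.1% in HA against 0.402% to 0.485% in IgG. The neuron list reaches 0.272% to 0.484% in HA against 1.41% to 1.76% in IgG.

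Immediate early genes, which are induced quickly by stimulation or tissue handling, did not move one way. Of 16 tested, 5 were called higher, 4 lower and 7 not called, not far from the 29.3% higher and 37.7% lower of all genes tested. The median log2 fold change was 0.02 with TMM scaling and -0.41 with library totals. With the length trend removed, 5 were higher and 6 lower. Fos had 10.4, 6.12, 4.59 and 3.49 CPM in HA and 40.4, 78.5, 52.9 and 42.1 CPM in IgG, whereas sorted cells had 1879.8, 563, 1722 and 657 CPM. Egr1 had 24.4 to 43.5 CPM in HA, 239 to 256 CPM in IgG and 546 to 1274 CPM in sorted cells. Atf3, a stress-induced factor, was higher, with 12.2, 18.4, 27.5 and 31.4 CPM in HA and 4.09, 8.10, 4.04 and 3.91 CPM in IgG. The list as a whole took 0.0855% to 0.0931% of gene counts in HA, 0.111% to 0.167% in IgG and 0.681% to 1.46% in sorted cells, so both precipitates of homogenate were below the sorted cells.

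Long noncoding RNAs were lower in HA in all 7 tested cases (median log2 fold change -2.33; without mouse 2, 7 of 7, median -2.25). With the length trend removed, 5 of 7 were lower and the median was -1.51. Malat1, which stays in the nucleus, had 38.3, 24.5, 18.4 and 62.8 CPM in HA and 452, 200.0, 196 and 927 CPM in IgG, a log2 fold change of -3.14 ± 0.23 (adjusted p 1.15e-11, edgeR), and sorted cells had 944 to 3945 CPM. Meg3, which is strong in neurons, had 41.3 to 103 CPM in HA, 398 to 826 CPM in IgG and 2.71 to 15.9 CPM in sorted cells. The HA and IgG libraries of both genes did not overlap.

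The largest increases among called genes without overlap, at 4 or more in mean log2 CPM, were those of Ticam2, Laptm5, C1qb, Cd52, Hcls1, Epsti1, Gp9, C1qa, Guca1a and Ncf1. Cd52, a small surface glycoprotein of leukocytes, averaged 1381 ± 279 CPM in HA and 11.3 ± 5.49 CPM in IgG. Hcls1 had 682, 673, 714 and 981 CPM in HA and 4.54, 7.69, 6.73 and 5.21 CPM in IgG, and Epsti1, an interferon-induced gene, 227 to 284 CPM in HA and 1.30 to 3.18 CPM in IgG. Guca1a, known for activating guanylate cyclase in photoreceptors, had 97.4, 82.6, 139.9 and 129 CPM in HA and 1.36, 0.810, 0 and 1.74 CPM in IgG, with 34.1 to 41.5 CPM in sorted cells. No other gene of the deposited table overlaps Guca1a or Gp9.

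Among the 10 largest decreases were those of Pcdh7, Fut9, 9430020K01Rik, Gabrb2, Gdap1, Arhgef28, Unc80, Arap2 and Gabra6, of which Gabrb2 and Gabra6 encode subunits of GABA-A receptors. Pcdh7, a protocadherin, had no count in HA and 52.3, 8.50, 72.2 and 71.2 CPM in IgG, and was thus at least 27.1-fold lower in HA (floor of 3 counts over the group). Fut9, a fucosyltransferase, had 1 count in HA and 71.3, 8.10, 114 and 116 CPM in IgG, a ratio of 123 in favour of IgG (95% exact interval 22 to 4870.0, counting error only). Unc80, part of a neuronal sodium leak channel, had 3.48, 6.12, 4.59 and 3.49 CPM in HA and 262, 75.7, 329 and 363 CPM in IgG, a log2 fold change of -5.46 ± 0.37. The IgG library of mouse 2 was the lowest of its group in each of these genes except Arhgef28, and without mouse 2 the log2 fold change of Unc80 was -5.79.

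Per length, the level of a gene is its counts divided by its exon length, on a scale that sums to 1000000 in each library. Cst3 was the leading gene in HA at 94988 ± 2426, and 4520 ± 424 in IgG, where it ranked 6. C1qa reached 37590 ± 3555 in HA and 497 ± 73.0 in IgG, and C1qb 27912 ± 4417 in HA and 311 ± 58.4 in IgG. Apoe, Rplp1 (a ribosomal stalk protein), Ctsd, Mir682, C1qc, Tyrobp and Tmsb4x (an actin-binding peptide) completed the first 10. Mir682 is annotated over 95 bases, and its value is uncertain because the handling of reads with several matches was not given in the sources used here. Of the first 100 genes in HA, 95 were called higher, 2 lower and 3 not, and 41 were also among the first 100 in IgG. The pair called lower, at ranks 34 and 38 in HA, were Nrgn and Ckb, a creatine kinase of neurons and astrocytes. Ranking by the HA level favours genes called higher, so these counts are descriptions. Of the first 100 in IgG, 42 were called higher, 39 lower and 19 not, against 29.3% higher and 37.7% lower over all genes tested. Calls rest on TMM scaling and per-length levels do not. Cox4i1, for example, was called higher with a per-length level of 3178 in HA and 4260 in IgG.

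Fold changes also followed transcript length over all genes tested. The median log2 fold change was 0.50 for the 2507 genes with the shortest exons (62 to 1832 bases), and -1.12 for the 2505 with the longest (4449 to 23395 bases). Spearman's correlation across genes, which are not independent replicates, was -0.37. When a smooth trend on length was removed, 2668 genes were called higher and 3662 lower. The microglial surface list then had 20 higher of 21 with a median of 5.46, and the neuron list 20 lower of 20 with a median of -2.42. Where removal of the trend changed the calls of another list by more than 1 gene, that count stands beside the list.

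The same precipitation in the Sall1-CreER line was compared with that in the Cx3cr1 line by testing the difference between lines in log2 fold change of HA over IgG. Of 12308 genes tested over the 16 homogenate libraries, 4151 (33.7%) differed, 2363 (19.2%) with a higher HA enrichment in the Sall1 line and 1788 (14.5%) with a lower one. The microglial surface list had a median log2 enrichment of 1.74 in the Sall1 line and 5.33 in the Cx3cr1 line, and 21 of 21 tested genes were lower in the Sall1 line. C1qa had a log2 enrichment of 3.53 ± 0.16 in the Sall1 line and 7.17 ± 0.19 in the Cx3cr1 line, a difference of -3.64 ± 0.22 (adjusted p 1.06e-14, edgeR). Laptm5 had 3.56 ± 0.22 in the Sall1 line and 7.51 ± 0.25 in the Cx3cr1 line, a difference of -3.95 ± 0.29.

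Border macrophage and MHC class II genes had a median log2 enrichment of -0.29 and -0.63 in the Sall1 line, against 5.27 and 5.49 in the Cx3cr1 line. In the Sall1 line 11 of 12 and 7 of 7 tested genes were lower, against 14.5% of all genes tested. The border macrophage list averaged 0.0865% of gene counts in Cx3cr1 HA, 0.00296% in Sall1 HA and 0.00404% in Sall1 IgG libraries. Genes of both lists could pass the filter through the Cx3cr1 HA libraries alone, which favours a lower enrichment in the Sall1 line, so these counts are descriptions. Pf4 had 1.06, 3.00, 4.11 and 4.62 CPM in HA and 5.68, 6.18, 3.68 and 3.40 CPM in IgG of the Sall1 line, where the groups overlapped, against 175 to 312 CPM in HA and 0.909 to 5.26 CPM in IgG of the Cx3cr1 line. The difference in log2 enrichment was -6.84 ± 0.55 for Pf4 (adjusted p 5.39e-12) and -6.35 ± 0.36 for Cd74 (adjusted p 4.45e-15, edgeR). Cx3cr1 differed by -3.22 ± 0.26 and Sall1 by -2.10 ± 0.34.

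Astrocyte and oligodendrocyte genes went the other way. The astrocyte list had a median log2 enrichment of 2.00 in the Sall1 line and -1.63 in the Cx3cr1 line, and 17 of 18 genes were higher in the Sall1 line. Slc1a2 averaged 1519 ± 15.2 CPM in HA and 607 ± 67.0 CPM in IgG of the Sall1 line, against 145 ± 35 CPM in HA and 598 ± 53.4 CPM in IgG of the Cx3cr1 line, a difference of 3.33 ± 0.24 in log2 enrichment (adjusted p 4.09e-13, edgeR). Mbp differed by 2.63 ± 0.23. Neuronal genes had medians of -2.41 in the Sall1 line and -3.01 in the Cx3cr1 line, but their median difference was 0.142, against 0.155 for all genes. In the test between lines 5 of 20 were higher and 2 lower, near the 19.2% higher and 14.5% lower of all genes tested. Endothelial genes had medians of -3.48 in the Sall1 line and -1.64 in the Cx3cr1 line. Of 16 tested, 7 were lower in the Sall1 line and 1 higher, against 14.5% lower and 19.2% higher of all genes tested. The list averaged 0.0173% of gene counts in Sall1 HA and 0.0165% in Cx3cr1 HA libraries, but 0.0767% in Sall1 IgG and 0.047% in Cx3cr1 IgG libraries. Genes low in HA could pass the filter through the IgG libraries alone, so these counts are descriptions. Rpl22 had a log2 enrichment of 1.58 ± 0.16 in the Sall1 line and 1.55 ± 0.17 in the Cx3cr1 line, a difference of 0.02 ± 0.23 that did not pass the test (adjusted p 0.948, edgeR).

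**Figure D5:**
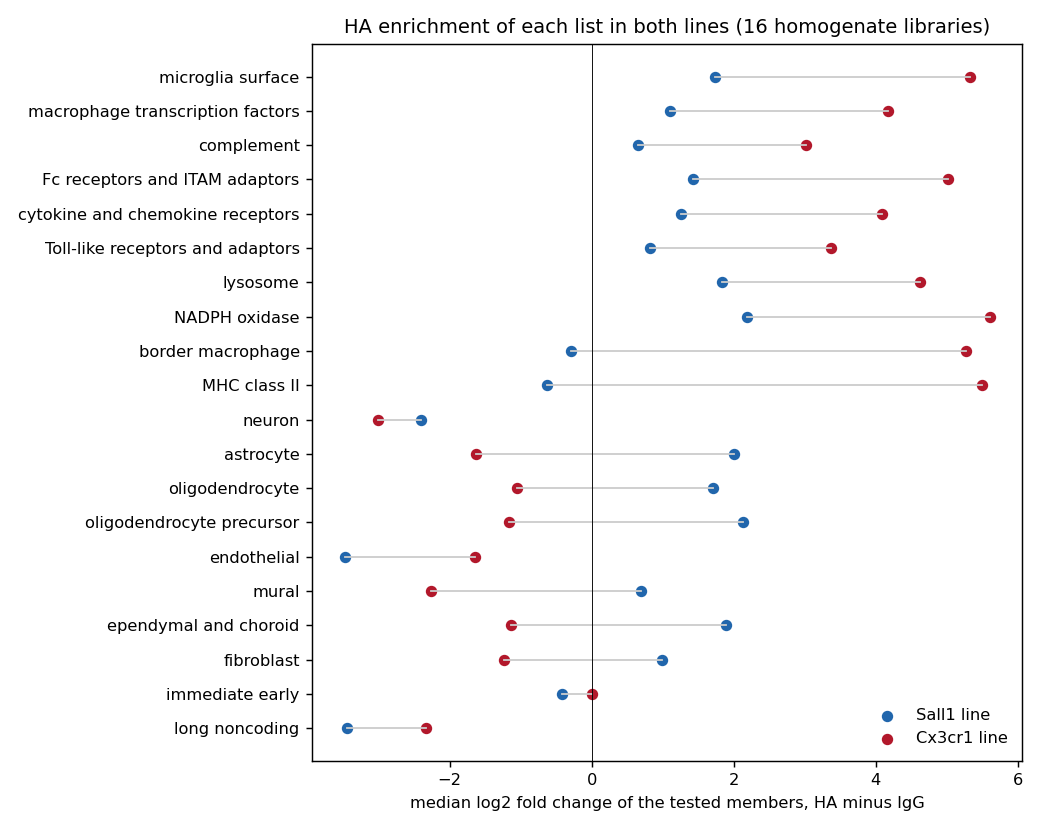
Median log2 fold change of HA over IgG of the tested members of 20 gene lists in the Sall1 line (blue) and in the Cx3cr1 line (red), from 1 fit over 16 homogenate libraries. Border macrophage and MHC class II medians are -0.29 and -0.63 in the Sall1 line against 5.27 and 5.49 in the Cx3cr1 line, while the astrocyte median is 2.00 in the Sall1 line against -1.63 in the Cx3cr1 line.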

How the data were processed

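The authors deposited whole-number counts of reads in the exons of 24411 genes, not normalized per the file headers. The submitters' processing notes name bcl2fastq, HISAT (0.1.5), HOMER and build mm9, with no roles. Handling of multiply mapped reads and of strand was not given in the sources used here, so genes with near-identical copies and overlapping genes are uncertain. Libraries with the same number come from the same brain, per the series' design, and the number was a block in the main fit. Deviations from group means correlated at 0.0029 to 0.108 between both precipitates of a mouse. By these deviations, the IgG library closest to the HA library of mice 1, 2, 3 and 4 was that of mouse 3, 2, 3 and 2. The pairing thus rests on the design and is not visible in the counts of every mouse.

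HA was tested against IgG in 8 libraries with edgeR 4.0.16 (R 4.3.3, limma 3.58.1), by a robust quasi-likelihood fit with TMM factors, after edgeR's own filter with a minimum count of 10. The test between lines was an interaction term over 16 libraries. On simulated counts with known changes, 55% of genes with a log2 change of 1 and 99% of those with 2 were recovered in the fit of HA against IgG (10515 genes, with 2.53% of calls made on genes simulated without a change). In the test between lines, 21% and 94% were recovered (12047 genes, with 2.54% of calls on unchanged genes). The simulation changed 100 genes of each size above a minimum level, up and down alike. HA and IgG otherwise shared the same profile, with a fixed dispersion. In the data 67.1% of genes were called in HA against IgG and 33.7% between lines. These percentages from simulation therefore check the code and do not give the recovery or error of either comparison. CPM values are relative to all gene counts of a library, without TMM. The sorted libraries of the Cx3cr1 line have titles and descriptions that disagree, so both were summed per mouse. Chi-square per degree of freedom between libraries of a group was 1.75 to 24.8, so none were merged as duplicates. Among HA libraries it was 1.75 for mice 1 and 2, 2.64 for mice 3 and 4, and 3.85 to 4.11 between these pairs. The cause of that split was not tested.

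Members and lists were chosen with earlier results of these data known. Named are a panel of genes, per list a called gene that goes against its median, the 10 largest changes each way (4 or more in mean log2 CPM, no overlap) and the 10 leading genes per length. Other list members were named as examples after their values were seen. Some genes this rule covers are not reported here. Of 66 genes it covers that were called, 65 had groups without overlap, P2ry12 being the exception, but the rule favours such genes. Alternatives were no block, median-ratio factors, library totals, DESeq2 1.42.0, other filters, thinned IgG libraries, removal of the length trend, leaving out each mouse and shares without the 10 most abundant genes; list counts without mouse 2 were added after seeing the data. Coordinates of genes are mm9, from the deposited table, and promoter windows GRCm38.p6 (RefSeq).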

Additional observations from a re-analysis of the deposited data

Results flagged for a closer look

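Of 141 groups of 4 libraries examined for a sample far from the others, 5 held one, and chance flags about 1 in 20 groups. Ticam2 in the HA library of mouse 3 had 80.3 CPM, above the other HA libraries. Cd163 in the IgG library of mouse 4 had 0.868 CPM, a value that rests on few counts. In the IgG library of mouse 3, the Fc receptor list took 0.0751% and the Toll-like receptor list 0.0144% of gene counts, both above the other IgG libraries, and in that of mouse 1 the oligodendrocyte list took 0.749%, also above the others.

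HA enrichment differed between the lines in the interaction test for 8 of the 9 named genes, against 33.7% of all genes tested. The named genes were chosen with earlier results of these data known, so their count is a description. The log2 difference, Sall1 line minus Cx3cr1 line, was -3.64 for C1qa, -3.95 for Laptm5, -6.84 for Pf4, -6.35 for Cd74, -3.22 for Cx3cr1 and -2.10 for Sall1. It was 3.33 for Slc1a2 and 2.63 for Mbp, and Rpl22 was the gene that did not pass the test.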

How the results depend on the processing

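The 6720 calls of HA against IgG became 6465 without the replicate block (2862 higher, 3603 lower, 6401 of the calls kept), 6696 with median-ratio factors, 5899 with DESeq2 and 7834 without a low-count filter, and 5852 to 7115 when 1 mouse was left out. A minimum count of 50 left 4171 calls (1932 higher, 2239 lower) among 5387 genes tested, and IgG libraries thinned to the mean HA total left 4659 (2246 higher, 2413 lower) among 6453, so fewer genes were tested in both. With the length trend removed, 5380 calls kept their direction and 35 turned. The 4151 calls between lines became 3965 without the replicate block, 3708 with DESeq2 and 3606 to 4072 with 1 mouse left out. The replicate block changed no call of a named gene.

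Without the 10 most abundant genes in the total, the mean share of HA libraries was 0.104% against 0.0865% for the border macrophage list, and it moved by more than 1 SD for 13 others, among them complement (0.156% against 5.62%), lysosome (2.98% against 10.5%) and astrocyte (0.256% against 1.59%). With 1 mouse left out, the log2 fold change ranged from -0.115 to 0.0352 for Ttr and from -0.2114 to 0.2062 for Jun, and the difference of Rpl22 between lines from -0.0103 to 0.1084, with -0.0017 without mouse 17 of the Sall1 line. Jun was 0.0022 with the length trend removed, and the Rpl22 difference -0.0769 with median-ratio factors and -0.0716 with DESeq2. None of these Ttr, Jun and Rpl22 values was called. P2ry12 lost its call with library totals (0.49, adjusted p 0.0597), Tlr7 gained one with the length trend removed (1.18, adjusted p 0.0389). The cause of these changes was not tested. HA depth limits statements on genes near or under 10.5 CPM.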
